A study of Mus musculus with 6 samples.

Results

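The genes described here encode filaggrin (Flg), repetin (Rptn), loricrin (Lor), involucrin (Ivl), trichohyalin (Tchh), trichohyalin-like 1 (Tchhl1), the cysteine-rich protein Crct1, the plakins envoplakin (Evpl) and periplakin (Ppl), and cornifelin (Cnfn). They were chosen by symbol from the platform annotation, and 9 of the 10 had a row, each from 1 probe, among 22879 rows of which 18617 were named genes. Cnfn was not analysed here. The symbols were picked with earlier results of this comparison known, so their ratios are given as a description.

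Skin RNA of 3 WT mice was set against that of 3 LynDN transgenic mice on 2-colour arrays. The kinase Lyn belongs to the Src family, and the series title spells the transgene LynDeltaN. Every pair of mice was hybridised with both dye orientations, which makes 6 arrays and 3 pairs: LynDN mouse 1 with WT mouse 1, LynDN mouse 2 with WT mouse 3, and LynDN mouse 3 with WT mouse 2. The labels used here name no age, strain background or promoter of the transgene.

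Each value is a log2 ratio of one genotype over the other, so a log2 ratio of 1 is a 2-fold difference. The sources used here do not state which genotype is the numerator, nor the log base, which was taken as 2. Positive and negative are therefore sides of the comparison, as deposited, and all signs would turn together if the numerator were the other genotype. A ratio carries no expression level, so neither the abundance of these transcripts nor the labelled tissue could be checked from marker levels. The pair was the replicate (n = 3), and the number of pairs limits the precision. Pair 1 stood apart: over all rows its ratios had an SD of 0.189, below the 0.291 and 0.301 of pairs 2 and 3. The Y-linked gene Eif2s3y had a log2 ratio of 3.50 there and lay within 0.03 of 0 elsewhere. A difference of sex between the mice of pair 1 was not tested. It cannot be told apart from the other differences of that pair.

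The cornified envelope is a layer of cross-linked protein that replaces the plasma membrane of keratinocytes as they die to form the skin surface. Involucrin, envoplakin and periplakin are laid down early under the membrane, loricrin is added later in bulk, and transglutaminases join the proteins. Filaggrin, made from a large repeat-bearing precursor, bundles keratin filaments inside the cell and is later broken down to amino acids that hold water. Repetin, trichohyalin and trichohyalin-like 1 belong with filaggrin to the S100-fused proteins, which carry an S100-type calcium-binding domain ahead of a long tail of repeats. Most genes of this kind lie side by side in one gene cluster, the epidermal differentiation complex.

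Promoter sequence is shown for the members of that cluster that the results turn on, because genes with opposite ratios carry a similar short motif in this stretch. Each line gives the 150 bases before the annotated transcription start, from RefSeq on GRCm38.p6. Capitals mark TGANTCA, a pattern with a free middle base that includes the recognition sequence of AP-1 (Fos and Jun) factors, where the middle base is G or C, and the TATA box of the promoter. Both motifs were searched on both strands, and they do not overlap here.
Rptn, chr3:93393549-93393698, plus strand: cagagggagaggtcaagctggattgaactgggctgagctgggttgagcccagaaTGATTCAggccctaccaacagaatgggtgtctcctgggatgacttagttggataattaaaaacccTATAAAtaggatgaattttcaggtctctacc
Flg, chr3:93273396-93273545, plus strand: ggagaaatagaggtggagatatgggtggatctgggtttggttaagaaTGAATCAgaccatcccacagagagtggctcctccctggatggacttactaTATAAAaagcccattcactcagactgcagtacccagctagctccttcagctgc
Lor, chr3:92083143-92083292, minus strand: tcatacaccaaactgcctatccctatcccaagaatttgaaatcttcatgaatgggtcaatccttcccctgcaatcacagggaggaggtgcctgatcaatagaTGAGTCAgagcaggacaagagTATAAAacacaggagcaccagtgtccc
Ivl, chr3:92573736-92573885, minus strand: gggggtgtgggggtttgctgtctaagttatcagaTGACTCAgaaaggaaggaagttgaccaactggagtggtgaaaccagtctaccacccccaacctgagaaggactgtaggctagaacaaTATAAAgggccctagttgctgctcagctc
Tchhl1, chr3:93468604-93468753, plus strand: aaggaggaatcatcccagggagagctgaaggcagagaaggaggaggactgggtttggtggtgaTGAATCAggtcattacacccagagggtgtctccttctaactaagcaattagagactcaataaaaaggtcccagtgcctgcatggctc
Tchh, chr3:93442180-93442329, plus strand: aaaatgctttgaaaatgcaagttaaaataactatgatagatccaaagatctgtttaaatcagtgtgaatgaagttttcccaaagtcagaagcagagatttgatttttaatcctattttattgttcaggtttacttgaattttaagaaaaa

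The TGANTCA motif was found in 5 of the 6 measured members that have a window of 300 bases (250 before and 50 after the start), all except Tchh. It was found in 7.81% of all 32851 such windows. Around the match the printed bases of Flg, Rptn and Tchhl1, all S100-fused genes, look alike. These matches may therefore not be separate counts to set beside that share. The motif began 96 bases before the start in Rptn and 103 bases before it in Flg, and 48, 116 and 87 bases before it in Lor, Ivl and Tchhl1. The TATA box, searched as TATAAA, was present in 4 of the 6 and in 13.6% of all windows, at 27 to 53 bases before the start in Lor, Ivl, Rptn and Flg. A match is a description of the letters and not evidence of binding. With G or C in the middle, as in the AP-1 sequence, the motif was found in 2 of the 6, Lor and Ivl, and in 5.20% of all windows. Rptn, Flg and Tchhl1 have A or T there. The looser pattern occurred in Rptn, which was positive, and in Flg, Lor, Ivl and Tchhl1, which were negative.

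Repetin and filaggrin lay at opposite ends of the table. Rptn had the second highest mean log2 ratio of 22879 rows (rank 2 from the top), Flg the second lowest (rank 2 from the bottom), and Lor was at rank 7 from the bottom. The other 6 measured members stayed under 2-fold on average. A mean ratio of at least 2-fold was reached by 3 of 9 members, 1 positive and 2 negative, against 0.599% of all rows (0.52% positive and 0.0787% negative). These ratios chose the members, so nothing is read from that count.

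**Figure D1:**
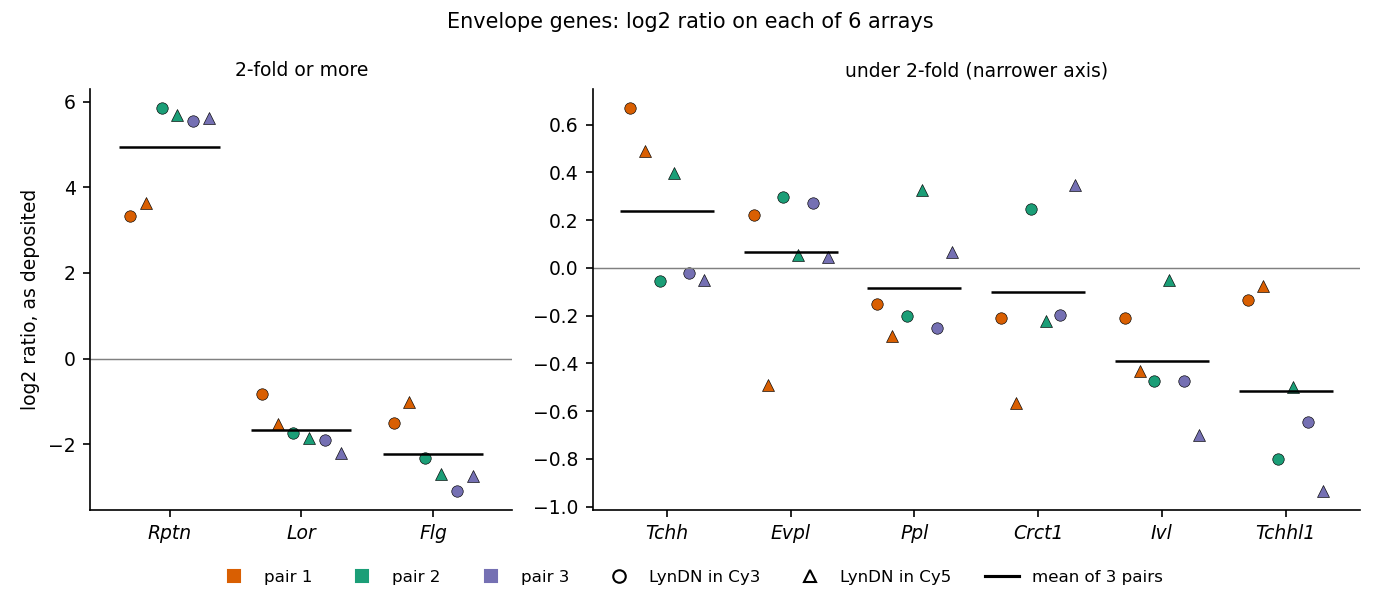
Log2 ratio (vertical axis, as deposited) of the 9 measured envelope genes on each of 6 arrays, coloured by mouse pair, with circles for LynDN in Cy3, triangles for LynDN in Cy5 and a line at the mean of 3 pairs; the right panel has a narrower axis. Rptn lies between 3.32 and 5.85, Flg between -3.08 and -1.02 and Lor between -2.19 and -0.84, while Tchh, Evpl, Ppl and Crct1 have arrays on both sides of 0.

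Repetin, a glutamine-rich matrix protein of stratified epithelia that transglutaminases can cross-link, was positive on every array. In pair 1 the array with LynDN in Cy3 gave a log2 ratio of 3.32 and the one with LynDN in Cy5 gave 3.63. Pair 2 gave 5.85 and 5.70 in the same order, and pair 3 gave 5.55 and 5.62. The arrays of a dye swap thus lay within 0.31 of each other, and the lower values were those of pair 1. The mean log2 ratio was 4.94 ± 1.28 (SD, n = 3 pairs), or 30.8-fold, made up of 11.1-fold in pair 1, 54.8-fold in pair 2 and 48.0-fold in pair 3. In whole skin, a change in the number of cells that make a transcript and a change in the RNA per cell cannot be told apart.

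Filaggrin was negative on every array. With LynDN in Cy3 given first, pair 1 gave log2 ratios of -1.50 and -1.02, pair 2 gave -2.31 and -2.71, and pair 3 gave -3.08 and -2.73. The arrays of pair 1 were again the nearest to 0 and did not overlap with those of the other pairs. The mean was -2.23 ± 0.86 (SD, n = 3 pairs), a 4.68-fold difference that was 2.40-fold in pair 1, 5.69-fold in pair 2 and 7.49-fold in pair 3. The gap between the arrays of a dye swap was at most 0.48, so dye orientation moved Flg less than the choice of mouse pair did.

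Set against each other on the same array, a comparison in which the centring of the array cancels, Rptn exceeded Flg by a log2 difference of 4.82 and 4.65 on the arrays of pair 1. The difference was 8.16 and 8.41 in pair 2 and 8.63 and 8.35 in pair 3. Pairs 2 and 3 thus lay close together, and the mean difference over pairs was 7.17 ± 2.11 (SD, n = 3).

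Trichohyalin, which hardens the inner root sheath and medulla of the hair, and its relative Tchhl1 were nearer to 0. For Tchhl1, pair 1 gave -0.13 and -0.07, pair 2 gave -0.80 and -0.50, and pair 3 gave -0.645 and -0.93. All 6 arrays were negative, with pair 1 almost at 0. The mean was -0.51 ± 0.36 (SD, n = 3), at rank 142 from the bottom of 22879 rows. For Tchh, pair 1 gave 0.67 and 0.49, pair 2 gave -0.05 and 0.40, and pair 3 gave -0.02 and -0.05, so that 3 arrays were positive and 3 negative. Its mean of 0.24 ± 0.31 (SD, n = 3) was smaller than the spread between pairs. In these 2 genes the ratios shifted together from pair to pair. Tchh exceeded Tchhl1 by 0.68, 0.82 and 0.75 in pairs 1, 2 and 3, a mean difference of 0.75 ± 0.07 (SD, n = 3). Both were highest in pair 1, as were the list medians of hair follicle, skeletal muscle, melanocyte and adipocyte genes given below. The leukocyte and fibroblast medians were lowest there.

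The S100-fused genes therefore did not share a direction. Of the 4 measured, Rptn was positive and Flg and Tchhl1 were negative on 6 arrays, and Tchh was divided. Their relatives Flg2, Hrnr and Crnn were not analysed here.

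Loricrin, the glycine-rich protein that makes up much of the mature envelope, was negative on every array. Its log2 ratios on the 2 arrays were -0.84 and -1.52 for pair 1, -1.75 and -1.85 for pair 2, then -1.90 and -2.19 for pair 3. The mean was -1.67 ± 0.45 (SD, n = 3), or 3.19-fold. For Lor the largest gap between arrays of a dye swap was that of pair 1, at 0.68, while pairs 2 and 3 had gaps of 0.11 and 0.29. Flg and Lor differed by -0.09 in pair 1 and by -0.71 and -0.86 in pairs 2 and 3. Their mean difference, -0.55 ± 0.41 (SD, n = 3), was little larger than its spread, and on 1 array of pair 1 Lor was the more negative gene.

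Involucrin, an early scaffold protein of the envelope, was negative on 6 arrays, and its mean was at rank 303 from the bottom of 22879 rows. Its log2 ratios were -0.21 and -0.43 for pair 1, -0.475 and -0.05 for pair 2, then -0.47 and -0.70 for pair 3. The mean was -0.39 ± 0.17 (SD, n = 3), which is 1.31-fold, and the arrays of pair 2 differed by 0.42, as much as the mean itself. Lor was further from 0 than Ivl on each of the 6 arrays, by a mean log2 difference of -1.28 ± 0.37 (SD, n = 3).

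The plakins, which tie desmosomes and keratin filaments to the inner face of the envelope, showed no side. Evpl had 0.22 and -0.49 for pair 1, 0.29 and 0.05 for pair 2, then 0.27 and 0.05 for pair 3, a mean of 0.07 ± 0.17 (SD, n = 3). Ppl had -0.15 and -0.28 for pair 1, -0.20 and 0.33 for pair 2, then -0.25 and 0.07 for pair 3, a mean of -0.08 ± 0.14 (SD, n = 3). Dye orientation moved both genes by about as much as the mouse pair. Evpl averaged 0.26 with LynDN in Cy3 and -0.13 with LynDN in Cy5, and the arrays of the 2 orientations did not overlap. Ppl averaged -0.20 and 0.04, with overlap. Neither plakin had a mean ratio larger than its spread between pairs.

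Crct1, a small cysteine-rich protein encoded beside the late envelope genes, was also divided. It had -0.21 and -0.57 for pair 1, 0.25 and -0.22 for pair 2, then -0.20 and 0.35 for pair 3. With 4 arrays negative and 2 positive, its mean of -0.10 ± 0.25 (SD, n = 3) lay within the spread.

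Counted together, 5 of the 9 members had one sign on all 6 arrays, 1 positive and 4 negative, as did 8.03% of all rows (3.72% positive and 4.31% negative). A test of the pair values in limma with Benjamini-Hochberg adjustment over all rows called 0 of 9 members, beside 0.0175% of all rows, which is 4 rows. At an unadjusted p under 0.05 in limma there were 5 of 9 members, 1 positive and 4 negative. Of the 22879 rows, 1354 positive and 1466 negative ones were under it. With all 6 arrays and the mouse pair as a random replicate block, limma called 3 of 9 members: Rptn positive, Flg and Lor negative. That fit called 1.06% of all rows, 0.603% positive and 0.459% negative. Without pair 1 the members called on pair values were Rptn, Flg, Lor and Tchhl1, among 1117 rows. Because this contrast chose the members, these counts are listed and not weighed.

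The size of the difference depended on the mouse pair. Pair 1 was nearer to 0 than the mean of pairs 2 and 3 for each gene past 2-fold. The log2 difference of pair 1 from that mean was -2.21 for Rptn, 1.44 for Flg and 0.75 for Lor. It was 0.62 for Tchhl1 and 0.10 for Ivl. Tchh, Crct1 and Ppl went another way and were furthest from 0 in pair 1, at 0.58, -0.39 and -0.22. The sides of Rptn, Flg, Lor, Ivl and Tchhl1 were the same in the 3 pairs.

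**Figure D2:**
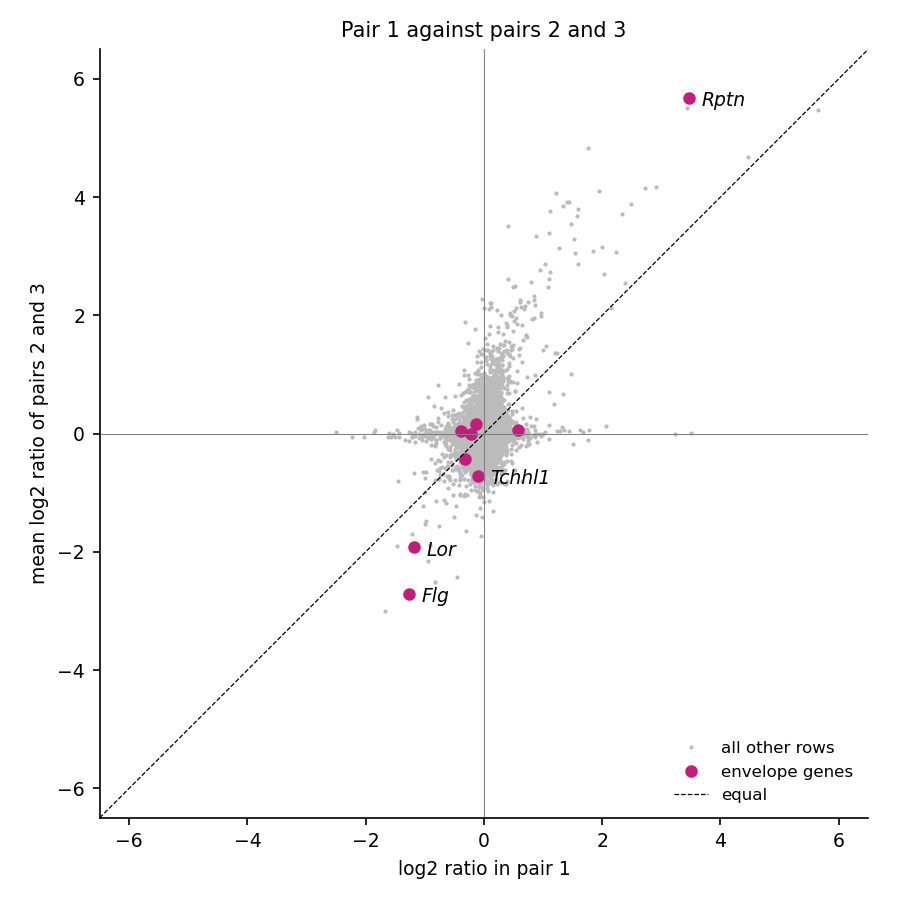
Log2 ratio in pair 1 (horizontal axis) against the mean log2 ratio of pairs 2 and 3 (vertical axis) for every row, with the 9 envelope genes in colour and a dashed line of equality. Rptn lies above the line at 3.48 and 5.68, Flg below it at -1.26 and -2.71 and Lor below it at -1.18 and -1.92.

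Other markers moved between pairs too. Leukocyte markers (15 measured of 18) had a median log2 ratio of -0.02 in pair 1, 0.34 in pair 2 and 0.46 in pair 3. On average 11 of the 15 were positive, as were 10009 of the 22829 rows outside the epidermal differentiation complex. Skeletal muscle markers (7 of 8) had -0.01, -0.58 and -0.69, melanocyte markers (5 of 5) 0.30, -0.67 and -0.54, and adipocyte markers (7 of 8) 0.11, -0.29 and -0.24 in pairs 1, 2 and 3. Fibroblast markers (6 of 7) stayed between -0.23 and 0.01. The median of all rows was -0.01 on average. The part of these cell types in the envelope gene ratios was not tested.

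Position in the genome was not used to choose the members, and 7 of the 9 lie in the epidermal differentiation complex. From S100a1 to S100a10 RefSeq lists 70 protein-coding genes there, of which 50 had a row. Flg, Rptn, Tchh and Tchhl1 are consecutive among the measured genes, so the steepest step between members falls between direct measured neighbours, Flg at -2.23 and Rptn at 4.94. Among protein-coding genes only Hrnr lies between them in the RefSeq order. Lce1m, a late envelope gene, is the measured neighbour on the other side of Flg and had -2.56 ± 0.80 (SD, n = 3). Loricrin is directly followed by Prr9 (-0.32), on the same side on average. The nearest measured gene before it is S100a9 (5.54), with 5 protein-coding genes between them that were not analysed here. In the complex without the members, 12 of 43 genes were at least 2-fold positive and 2 at least 2-fold negative, against 106 and 14 of the 22829 rows outside it. Most of the 12 were Sprr genes, and the rest were S100a8, S100a9, Lce3b and Lce3c. The 2 negative ones were Lce1c and Lce1m. Within the Sprr and Lce families a probe may read several similar genes, so these rows may not be separate counts. Ivl sat in a stretch of ratios under 2-fold, next to Sprr4 (-0.18) and Smcp (0.29).

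**Figure D3:**
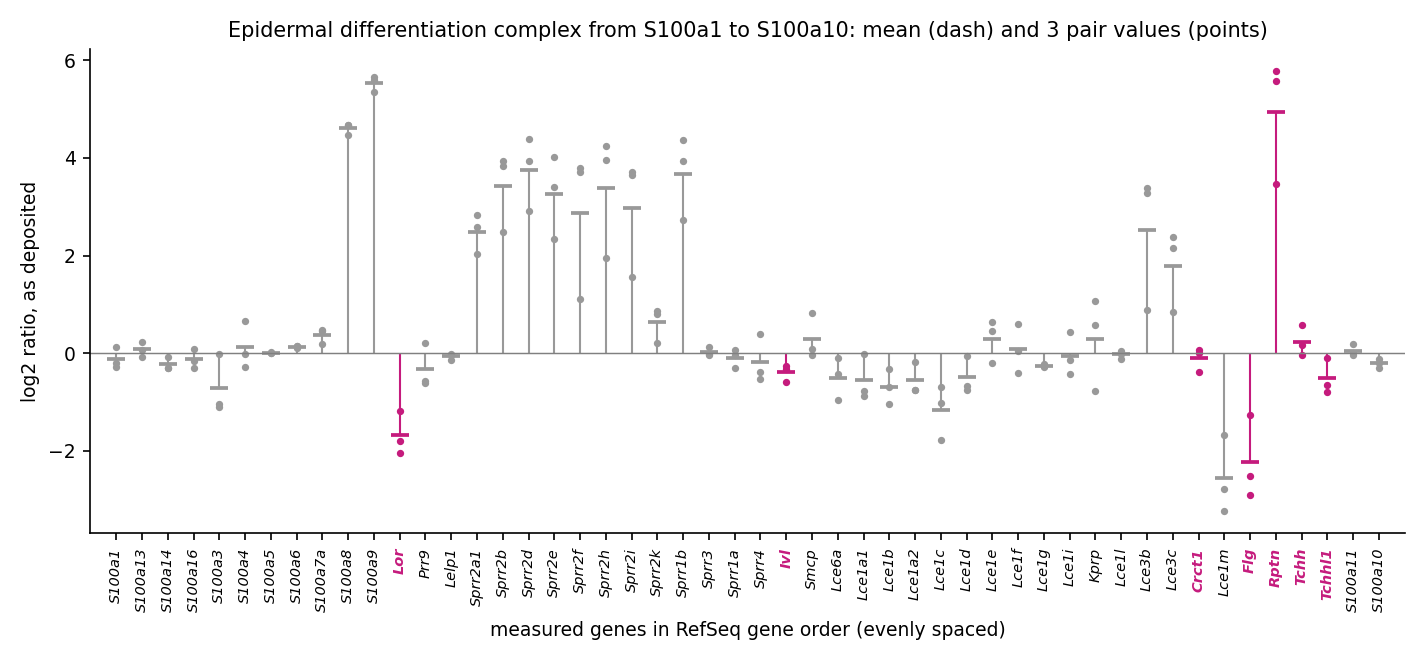
Mean log2 ratio (dash) and the 3 pair values (points) of 50 measured genes of the epidermal differentiation complex, evenly spaced in RefSeq gene order on the horizontal axis, with envelope genes in colour. Flg at -2.23 is followed by Rptn at 4.94, and the measured gene before Lor (-1.67) is S100a9 at 5.54, with genes not analysed here between them.

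The genes whose ratios were nearest to a member over the 6 arrays were found by the root mean square difference of the log2 ratio, which is 0 for identical values. The stress keratin Krt6b was nearest to Rptn, at 0.26, with 3.44, 5.34 and 5.68 in pairs 1, 2 and 3. The next were S100a8 (1.11) and Sprr2g (1.26), which were 4 times or more as far. Nearest to Flg were Skint9 (0.36), Lce1m (0.43) and Wfdc21 (0.52). Lor had the protease inhibitor gene Serpina3b (0.21), Lyzl1 (0.33) and Wfdc21 (0.36) as its nearest genes. For Ivl they were Ddah2 (0.11), Neu3 (0.13) and Mfsd14b (0.14). Likeness here covers the size of the ratio as much as its pattern, over 6 arrays that share their mice in twos.

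The proteins that join the envelope beside these members were divided by family. Over all lists beside the members, limma called 0 of 166 measured genes on pair values, with 43 positive and 32 negative at an unadjusted p under 0.05. Across the 22879 rows, 1354 positive and 1466 negative ones had an unadjusted p under 0.05 in limma. The unadjusted counts below are to be read beside those. The counts of genes that passed are from limma with the replicate block, which called 1.06% of all rows. Any unadjusted count is from the pair values. The block fit takes 6 arrays and 1 correlation of 0.151 within pairs for every row. For genes whose arrays of a pair lie closer than the pairs do, such as Rptn, it counts too much replication. No gene of these lists that passed with the block was called on the 3 pair values. Of 14 measured small proline-rich proteins, cross-bridging envelope proteins of stressed epithelia, 10 passed positive and 0 negative, with a median log2 ratio of 3.00. Sprr2g had 3.80 ± 1.79 and Sprr2d had 3.75 ± 0.76 (SD, n = 3). Of 14 late cornified envelope proteins 2 passed positive and 2 negative, around a median of -0.37. Those were Lce1m and Lce1c, at -2.56 ± 0.80 and -1.17 ± 0.55, on the negative side, and 1 of the positive ones was Lce3c with 1.79 ± 0.83 (SD, n = 3). Within the Sprr and Lce families sequences are similar, so 1 probe may read several genes.

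Cross-linking enzymes, desmosome proteins and most suprabasal proteins were closer to 0. Of 5 transglutaminases 0 passed with the block in limma, with 2 positive and 2 negative at an unadjusted p under 0.05. Tgm3 and Tgm1 had 0.93 ± 0.55 and 0.76 ± 0.59, while Tgm5 had 0.42 ± 0.46 and Tgm6 had -0.28 ± 0.26 (SD, n = 3). Of 17 desmosome and plakin genes other than Evpl and Ppl, 0 passed in limma, with a median of 0.08 and 7 positive and 1 negative at an unadjusted p under 0.05. Cdsn, which holds corneocytes together, had 0.61 ± 0.37, while the desmosomal cadherins Dsc2 and Dsc1 had 0.52 ± 0.26 and -0.46 ± 0.26 (SD, n = 3). Of 11 suprabasal keratinocyte genes 0 passed in limma, with 1 positive and 3 negative at an unadjusted p under 0.05. The suprabasal keratins Krt10 and Krt1 had -1.77 ± 1.24 and -0.64 ± 0.61, whereas Krtdap had 0.63 ± 0.71 (SD, n = 3). For Krt10, as for Flg, the ratio in pair 1 (-0.46) was closer to 0 than in pairs 2 and 3 (-1.94 and -2.92).

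Of 15 measured genes that process or break down filaggrin, 1 passed negative and 0 positive with the block, around a median of 0.03. That one was Hal, the histidine ammonia-lyase that turns filaggrin's histidine into urocanic acid, at -1.56 ± 0.77 (SD, n = 3). It had -0.92, -1.34 and -2.42 in pairs 1, 2 and 3, the same side as Flg in each. Spink5, an inhibitor of kallikrein proteases, had 0.67 ± 0.49, and the kallikreins Klk5 and Klk7 had -0.58 ± 0.40 and 0.48 ± 0.41 (SD, n = 3). Klk7 depended on dye orientation. In pairs 1, 2 and 3 it had 0.38, 1.27 and 1.21 with LynDN in Cy3. With LynDN in Cy5 it had -0.38, 0.20 and 0.16. Spink5, Klk5 and Klk7 did not pass.

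Genes of the inner root sheath and hair follicle, where trichohyalin is made, were negative in 15 of 17 measured genes, with a median of -0.42. Outside the epidermal differentiation complex, 12819 of 22829 rows were negative. With the block, 1 gene of the list passed negative. Krt33a, a hair keratin, had -0.98 ± 0.44 and passed, and Krt25, a keratin of the inner root sheath, had -0.55 ± 0.48 (SD, n = 3) and did not. The list medians were 0.06, -0.68 and -0.63 in pairs 1, 2 and 3. Tchhl1 and Tchh were likewise highest in pair 1. The part of follicle content in the Tchh and Tchhl1 ratios was not tested.

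Transcription factors of terminal differentiation had a median near 0, at 0.04 over 27 measured genes, with single genes on both sides. With the block in limma, 0 passed. At an unadjusted p under 0.05 there were 5 positive and 3 negative. The AP-1 members Fos and Fosl1 had 0.47 ± 0.49 and 0.46 ± 0.33, and Klf4, a regulator of barrier formation, had 0.46 ± 0.50 (SD, n = 3). Gata3, which acts in the inner root sheath and epidermis, had -0.42 ± 0.45 (SD, n = 3). Among 10 basal keratinocyte genes 2 passed positive and 1 negative. Krt14 had 1.34 ± 0.54 and Itgb4 0.47 ± 0.17 on the positive side, and Krt15 had -1.36 ± 0.33 (SD, n = 3) on the negative side.

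**Figure D4:**
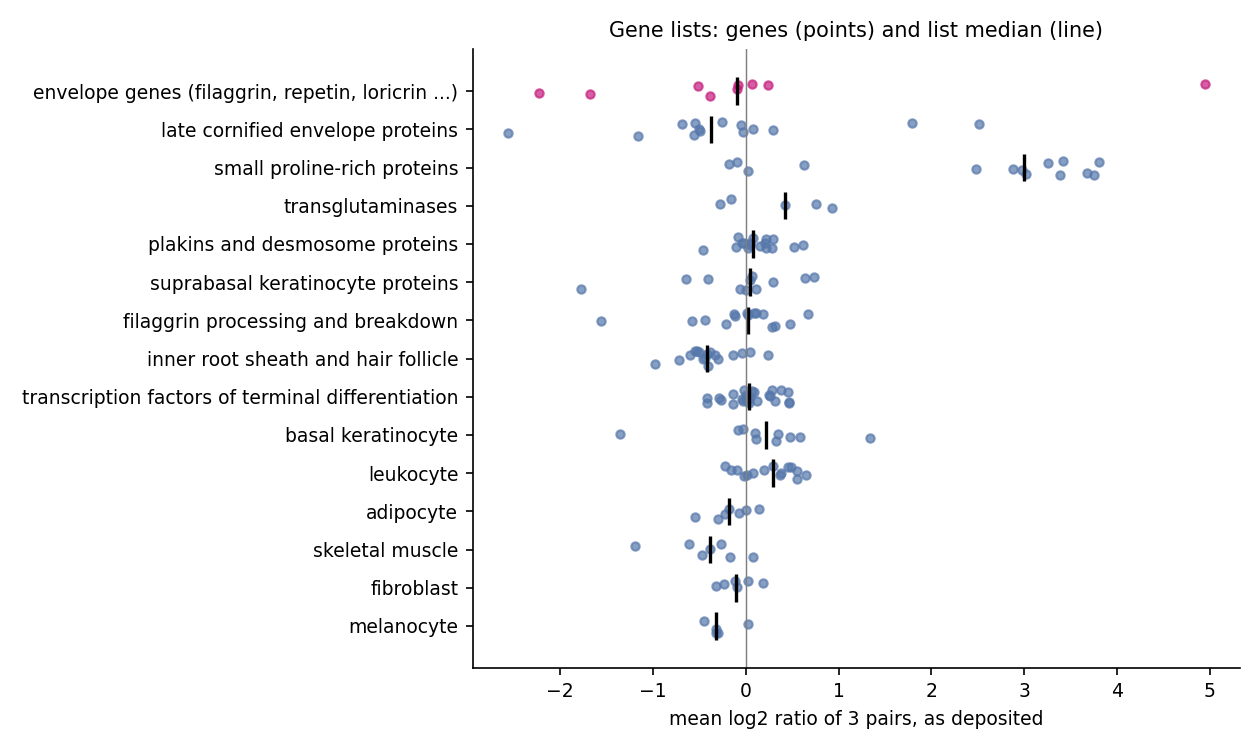
Mean log2 ratio over 3 pairs (horizontal axis, as deposited) of each measured gene (points), by gene list, with a line at each list median. The envelope genes, with a median of -0.10, span from Flg at -2.23 to Rptn at 4.94, while the small proline-rich proteins have a median of 3.00 and the inner root sheath and hair follicle genes one of -0.42.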

How the data were processed

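Total RNA was extracted with Qiagen reagents and labelled with Ambion reagents, per the labels' protocols. The deposited table holds 1 value for each of 25344 probes on each of 6 arrays, read here as a log2 ratio of the channels and centred by the authors on a mean of 0 per array. The sources used here do not give the scanner, background correction, normalization, numerator or log base. Array medians lay from -0.02 to 0.00. Spot intensities were not used here, so detection, saturation and cross-hybridisation could not be examined. For 5 of the 9 members the deposited values carry at most 3 significant digits.

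Probes with 1 gene symbol were averaged per symbol, and 4262 other probes stayed as unnamed rows. Both arrays of a dye swap carry the same mice, per the labels, and were averaged to 1 value per pair. Deviations from the orientation means correlated within pairs at r = 0.391, 0.182 and 0.126 across rows, which are not independent replicates. To test the 3 pair values against 0, limma 3.58.1 (R 4.3.3) fitted lmFit and eBayes to all 22879 rows; p-values were Benjamini-Hochberg adjusted and 0.05 was the threshold. The block fit used the 6 arrays and a dye term, and treated each mouse pair as a random replicate block through duplicateCorrelation (consensus 0.151). Labels name separate mice, so the SD over pairs holds biological and technical spread.

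The members and gene lists were chosen with earlier results of these data known. Named genes were the members and the 3 genes most like each of Flg, Rptn, Lor and Ivl. Up to 4 genes per list with the largest absolute mean log2 ratio were also named. The narrower AP-1 motif was searched after the matches were seen. Eif2s3y and the neighbours Prr9, S100a9, Sprr4 and Smcp were named after their values were seen. Alternatives covered the unit of replication, between-array scaling, the treatment of probes, moderation, each pair left out and each dye orientation alone. Plots used matplotlib 3.10.9 under Python 3.11.15.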

Additional observations from a re-analysis of the deposited data

How the results depend on the processing

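Over 12 alternatives for each of the 9 members, 106 of 108 mean log2 ratios stayed within 1 SD of the reported one. Most of these could not have moved further. With 1 probe per member, both fits on 6 arrays, both probe treatments and robust moderation leave the mean as it is. Leaving out 1 of 3 pairs cannot move a mean by 1 SD. Only scaling and dye orientation could do so. Rptn (4.53 to 5.68), Flg (-2.71 to -1.89), Lor (-1.92 to -1.49), Ivl, Tchh and Tchhl1 kept their side. The other sign appeared in 3 values: Crct1 without pair 1 (0.04), Evpl with LynDN in Cy5 only (-0.13) and Ppl with LynDN in Cy5 only (0.04). The number of calls depended on the setting, and the cause was not tested. With the replicate block, 243 rows passed in place of 4 (138 positive, 105 negative), with 3 members in place of 0 and 20 genes of the other lists in place of 0. On 6 arrays with no replicate block the counts were 319, 3 and 23. After quantile normalization they were 79 (59 positive, 20 negative), 2 (Rptn and Lor) and 12. With LynDN in Cy3 only they were 54, 1 (Rptn) and 5, and with LynDN in Cy5 only 24 (12 positive, 12 negative), 2 (Rptn and Lor) and 4. Centring and scaling the arrays gave 5 rows and 1 gene of the other lists, Sprr2a1. Leaving out 1 pair gave 2 to 1117 rows, 0 to 4 members and 0 to 68 genes of the other lists, the highest without pair 1. Every probe as a row, the median over probes and robust moderation gave 5, 4 and 4 rows. With 3 pairs, and no intensities to show which spots were dim, small ratios such as those of Evpl, Ppl and Crct1 cannot be placed on a side.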
